A study of Mus musculus with 4 samples.

Results

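The genes of 9 receptors that adjust T cell activation were followed in CD8 T cells sorted from mouse spleen, namely Cd28, Icos, Ctla4, Pdcd1, Lag3, Cd160, Cd27, Tnfrsf4 and Tnfrsf9. They were chosen by name, with earlier results of these data known. Every probe set that the array's annotation assigned to exactly 1 of them was kept. All 9 were found, by 15 probe sets, among 12393 genes that the array names. Where several probe sets name a gene, the brightest on average represents it, and its other probe sets are given where they bear on it. Ctla4 and Cd28 measured lower in both arrays numbered 2 than in both arrays numbered 1, whatever the treatment, while the other 7 genes stayed within a narrow range. For none of the 9 was a difference between TCDD and DMSO detected.

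Mice received an intraperitoneal injection of TCDD (a chlorinated dioxin and persistent ligand of the aryl hydrocarbon receptor, AHR) at 10 µg/kg, or of DMSO, its solvent. All were female C57BL/6 animals of 8 to 12 weeks, and spleens were taken 24 h later. Cells of the 4 mice treated for each group were pooled and sorted by FACS for CD8, and RNA was amplified before hybridisation to Affymetrix arrays. There are 2 arrays per group, which the titles number 1 and 2, and the labels say neither what the number marks nor whether each array had a pool of its own. The spread between arrays, and every p-value below, may therefore be technical.

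A T cell needs a costimulatory signal beside that of its antigen receptor, and it limits its own response through inhibitory receptors that appear or increase on activation. CD28, carried by naive T cells, and its inducible relative ICOS promote the response, whereas CTLA-4 competes with CD28 for the ligands CD80 and CD86, and PD-1, the product of Pdcd1, recruits phosphatases to the activated receptor. LAG-3 binds MHC class II, and CD160 binds the herpesvirus entry mediator HVEM. CD27, OX40 (Tnfrsf4) and 4-1BB (Tnfrsf9) belong to the TNF receptor family and signal through TRAF adaptors to NF-kB and to cell survival. Transcription of Ctla4, Tnfrsf9 and Pdcd1 is known to follow T cell activation.

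Cd28, Ctla4 and Icos lie next to each other in this order on mouse chromosome 1, with no other protein-coding gene between them in the RefSeq annotation of GRCm38.p6. Promoter windows of 300 bases, 250 before and 50 after a transcript's annotated start, were held for 6 of the 9 genes (RefSeq, GRCm38.p6). The window of Ctla4, the gene with the widest range, is shown with that of Cd27, whose group means did not differ between treatments. Ctla4 is on the plus strand at chr1:60908775-60909074 and Cd27 on the minus strand at chr6:125236978-125237277, both written 5′ to 3′ along the gene, with capitals on the bases that match a searched motif.
Ctla4: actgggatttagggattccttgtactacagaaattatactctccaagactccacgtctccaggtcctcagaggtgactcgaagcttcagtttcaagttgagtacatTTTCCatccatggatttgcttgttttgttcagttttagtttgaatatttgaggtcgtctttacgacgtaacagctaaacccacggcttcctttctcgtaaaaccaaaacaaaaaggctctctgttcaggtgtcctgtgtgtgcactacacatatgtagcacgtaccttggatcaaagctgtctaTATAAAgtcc
Cd27: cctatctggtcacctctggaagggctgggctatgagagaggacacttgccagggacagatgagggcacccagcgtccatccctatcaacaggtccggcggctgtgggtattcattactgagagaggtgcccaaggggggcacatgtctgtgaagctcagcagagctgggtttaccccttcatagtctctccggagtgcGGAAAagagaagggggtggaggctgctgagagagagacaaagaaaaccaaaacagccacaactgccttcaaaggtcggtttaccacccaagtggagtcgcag
Motifs were searched on both strands: GCGTG (the core that AHR binds), GGAAA (the core of NFAT sites), TGANTCA (the AP-1 site, with N for any base) and TATAAA (a core promoter element). The Ctla4 window held 1 GGAAA on the opposite strand, its leftmost base 144 bases before the start, and 1 TATAAA that began at base 41 after the start. The Cd27 window held 1 GGAAA, 52 bases before the start. Neither held GCGTG or the AP-1 site. Over all 32851 windows of this length, 32.4% held GCGTG, 61.3% GGAAA, 7.81% the AP-1 site and 13.6% TATAAA. Among the 8 windows of these 6 genes, GCGTG was found in 1, that of another transcript start of Cd160, and the AP-1 site in 1, that of another start of Tnfrsf9.

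The values are log2 RMA values (a normalised, probe-summarised signal with no true zero), and the median of all probe sets was 6.01. Over all probe sets the closest arrays were TCDD replicate 1 and DMSO replicate 1 (Pearson r = 0.9932), and the other pairs lay between 0.9806 and 0.988. The defining genes of the labelled cell type, Cd8a, Cd8b1, Cd3d, Cd3e and Cd3g, measured between 8.16 and 10.37 in the 4 arrays, well above that median. With so few arrays the precision is low throughout, and a lower share of cells of a type and less RNA per cell cannot be told apart in such bulk samples.

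In the CD28 family the arrays separated by number. Ctla4, the inhibitory receptor gene, measured 9.28 in TCDD replicate 1 and 8.70 in DMSO replicate 1, against 6.07 in TCDD replicate 2 and 6.46 in DMSO replicate 2. Both arrays numbered 1 were high and both numbered 2 were close to the median of all probe sets, with no overlap. The mean was 8.99 ± 0.41 (SD, n = 2) for number 1 and 6.265 ± 0.276 (n = 2) for number 2, a difference of −2.725 with 95% limits of −3.36 and −2.09, or 6.61-fold lower. Within the treatments it was −3.21 for TCDD and −2.24 for DMSO. In limma over all 22626 probe sets its unadjusted p was 0.0001446 and its adjusted p of 0.1677 was above the threshold of 0.05. With a variance trend and robust fitting the same difference passed (adjusted p = 0.0421). It did not pass in the other alternative limma fits to all 4 arrays, with adjusted p from 0.05808 to 0.4779. By size only 2 of the 12393 genes had a larger difference between the numbers, Rgs1, a regulator of G protein signalling, at −3.32 and the transcription factor gene Maff at −2.81.

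Cd28, the main costimulatory receptor gene, followed with a smaller difference. It measured 9.10 and 9.62 in TCDD and DMSO replicates 1, against 7.90 and 8.64 in TCDD and DMSO replicates 2. Both arrays numbered 2 were again lower than both numbered 1. The difference was −1.09 (95% limits −1.90 and −0.28), or 2.13-fold lower, with −1.20 within TCDD and −0.98 within DMSO. Its other probe set, at 8.15, 8.60, 6.58 and 7.32 in the same order of arrays, differed by −1.425. Neither passed the adjustment in limma (adjusted p = 0.5826 and 0.4291). In size, 0.742% of the named genes differed between the numbers by as much as Cd28 or more, and 0.0242% by as much as Ctla4 or more.

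The other CD28 family genes did not share the size of these differences. Icos, the inducible costimulator gene that neighbours Ctla4, measured 7.59 and 7.37 in TCDD and DMSO replicates 1 and 7.33 and 7.28 in TCDD and DMSO replicates 2. The numbers did not overlap, but the difference was −0.175, with limits of −0.48 and 0.13 (limma adjusted p = 0.7967), and −0.255 for its other probe set. Pdcd1, which encodes PD-1, measured between 3.99 and 4.27 in the 4 arrays, near the low end of the table's range of 3.09 to 14.62. RMA values there do not separate weak expression from none, and its difference between the numbers was 0.06 (limits −0.29 and 0.41).

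**Figure D1:**
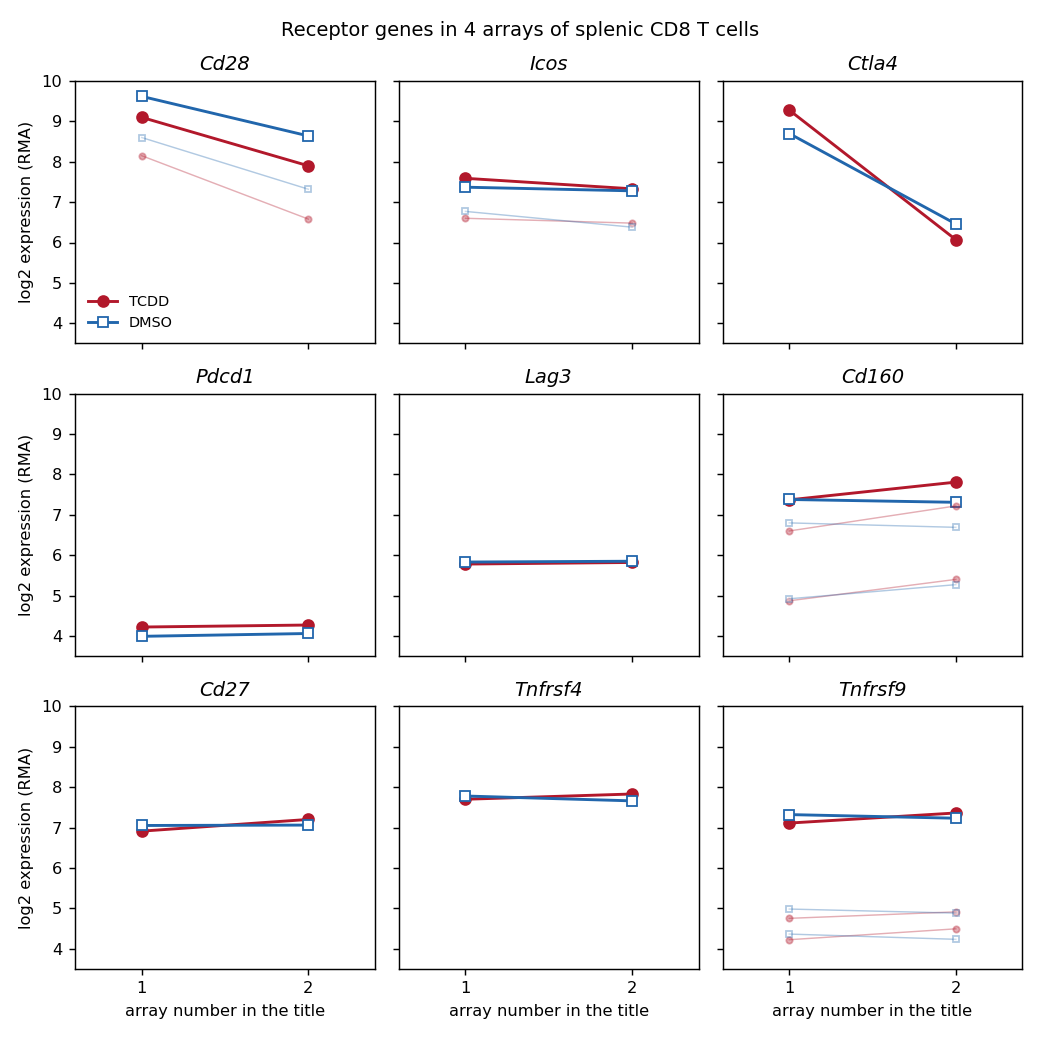
Log2 expression (vertical axis) of the 9 receptor genes in the 4 arrays, by the number in the array's title (horizontal axis), with filled circles for TCDD and open squares for DMSO. Large symbols are the brightest probe set, small faint ones the gene's other probe sets; Ctla4 goes from 9.28 and 8.70 to 6.07 and 6.46, Cd28 is lower at number 2 by both probe sets, and the main probe sets of the other 7 genes span at most 0.50.

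Lag3 and Cd160, the inhibitory receptor genes outside the CD28 family, showed no such step. Lag3 measured 5.78 and 5.83 in TCDD and DMSO replicates 1 and 5.82 and 5.85 in TCDD and DMSO replicates 2, the smallest span of the 9 genes at 0.07. Like Pdcd1, Lag3 was below the median level, where a small span may reflect weak signal. Its difference between the numbers was 0.03 (limits −0.21 and 0.27) and turned to −0.01 when arrays were centred on their medians. Cd160 measured 7.37, 7.38 and 7.31 in TCDD replicate 1 and both DMSO arrays and 7.81 in TCDD replicate 2, so 1 array stood above the rest. Its second probe set had the same array highest, at 7.22 against 6.60 to 6.80. The remaining one, below the median level, measured 5.40 and 5.27 in the arrays numbered 2 against 4.87 and 4.92 in those numbered 1, a difference of 0.44 (limma adjusted p = 0.4707). By the main probe set Cd160 differed by 0.185 (limits −0.30 and 0.67), and by −0.065 without TCDD replicate 2.

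The main probe sets of the TNF receptor genes spanned at most 0.29 over the arrays. Cd27, a costimulatory receptor gene of naive and memory T cells, measured 6.91, 7.05, 7.20 and 7.06 in TCDD replicate 1, DMSO replicate 1, TCDD replicate 2 and DMSO replicate 2. In the same order Tnfrsf4 measured 7.70, 7.78, 7.83 and 7.66, and Tnfrsf9 measured 7.11, 7.32, 7.36 and 7.23. Their differences between the numbers were 0.15 for Cd27, without overlap, and 0.005 for Tnfrsf4 and 0.08 for Tnfrsf9, with overlap. That of Tnfrsf4 turned to −0.035 with arrays centred on their medians. The limits of all 3 lay between −0.28 and 0.44, so a difference of the size seen for Cd28 was outside them. Tnfrsf9, whose product 4-1BB is induced on activation, had further probe sets at 4.75 to 4.98 and 4.22 to 4.49. Both were below the median level and also overlapped between the numbers.

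Between the numbers, 0 of the 9 genes passed limma, where 0.00442% of all probe sets did, namely 1 probe set, that of Rgs1, and 0 probe sets when any array was left out. At an unadjusted p under 0.05 there were 2, Cd28 and Ctla4, against 7.46% of all probe sets. The numbers did not overlap for 3 genes that were lower in number 2 (Cd28, Ctla4 and Icos) and for 1 that was higher (Cd27), and overlapped for 5. Over all named genes 36.4% did not overlap, 14.0% lower and 22.4% higher. The median difference of the 9 was 0.03, beside 0.035 over all genes.

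Markers of CD8 T cells and of other cells are given beside these values, with examples chosen after their values were seen. None of the measured markers passed limma between the numbers (0 in each of the 8 lists). The 5 CD8 T cell genes had a mean of 8.96 and 9.43 in TCDD and DMSO replicates 1 and of 9.50 and 9.67 in TCDD and DMSO replicates 2, opposite in direction to Cd28 and Ctla4. Regulatory T cells are known for constitutive Ctla4, and their defining factor Foxp3 measured between 4.42 and 4.73 in the 4 arrays, with Il2ra between 4.76 and 5.10. The list of 5 CD4 and regulatory T cell genes had a mean of 5.47 and 5.52 in number 1 and of 5.61 and 5.49 in number 2. Of all named genes, 14.0% were lower in number 2 without overlap and 22.4% higher. Higher without overlap were 2 of 5 CD8 T cell genes, 2 of 5 CD4 and regulatory T cell genes and 2 of 4 NK cell genes. In these lists 0 were lower without overlap. Of the 7 B cell genes measured, 3 were lower in number 2 without overlap and 2 higher. The 3 were the MHC class II genes H2-Aa and H2-Eb1 and the gene of their invariant chain, Cd74, the last at 9.04 and 8.98 in number 1 against 8.06 and 6.98 in TCDD and DMSO replicates 2. Of the B cell receptor genes, Cd79a measured between 5.46 and 5.83 with overlap, and Cd79b was higher in number 2, at 7.09 and 6.41 against 6.22 and 6.30. Ms4a1 was also higher without overlap, by 0.085, and Cd22 differed by −0.02 with overlap. Of the 4 dendritic cell genes measured, 2 were lower in number 2 without overlap. Irf8, 1 of them, was at 8.31 and 8.02 against 7.02 and 5.76, and Flt3 differed by −0.39. In that list Itgax differed by −0.05 and Zbtb46 by −0.005, both with overlap. Of the 5 neutrophil genes measured, 3 were higher in number 2 without overlap, beside the 22.4% of all named genes. S100a8 reached 8.67 in DMSO replicate 2 against 5.45 to 5.94 elsewhere. Csf1r, the receptor gene of the monocyte and macrophage list, was at 7.92 and 7.35 in TCDD and DMSO replicates 1 against 8.72 and 8.65 in replicates 2. The other 4 genes of that list overlapped between the numbers. Jchain, of the plasma cell list, was at 5.66 and 5.48 against 6.60 and 8.04. In the same list Sdc1 differed by 0.23 between the numbers, Xbp1 by −0.16 and Prdm1 by −0.04. The list means of B cell genes were 7.85 and 7.86 in number 1 and 7.69 and 7.12 in number 2, and those of neutrophil genes 5.86 and 5.78 against 6.19 and 7.24. The plasma cell means were 6.39 and 6.36 against 6.59 and 7.05, the dendritic cell means 6.83 and 6.70 against 6.44 and 5.99, the monocyte and macrophage means 6.17 and 5.89 against 6.37 and 6.26, and the NK cell means 5.69 and 5.62 against 5.81 and 5.88. The part of any of these in the Ctla4 and Cd28 values was not tested.

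The comparison the title names is that of TCDD with its solvent, and none of the 9 genes differed by more than 0.63 between these groups. Of the 9, 0 passed limma (lowest adjusted p = 0.9973), as did 0 of all 22626 probe sets (0.0%). At an unadjusted p under 0.05 there were also 0 of the 9, beside 1.94% of all probe sets. The treatments overlapped for 7 genes, and did not for Pdcd1, higher after TCDD, and Lag3, lower. Over all named genes 24.9% did not overlap, 12.9% higher and 12.0% lower. The median difference was 0.045, and 0.01 over all genes. With 2 arrays a group the smallest two-sided p of an exact permutation test is 0.3333, so none was run.

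Cd28 had the largest difference with treatment, −0.63, with a mean of 8.50 ± 0.849 (SD, n = 2) in the TCDD group and 9.13 ± 0.693 (n = 2) in the DMSO group, and limits of −1.97 and 0.71. The groups overlapped because of the step between the numbers. Within the numbers the TCDD array was the lower, by −0.52 in number 1 and −0.74 in number 2, and by −0.45 and −0.74 for the other probe set. With 1 array left out, number and treatment are no longer balanced, so the step between the numbers enters the treatment difference. That difference was −0.03 without TCDD replicate 2 and −1.23 without TCDD replicate 1. The 5 CD8 T cell markers had differences with treatment from −0.73 to −0.055, with a mean of −0.314, and 0 passed limma. Cd8a, named after its values were seen, differed by −0.73, with −0.74 in number 1 and −0.72 in number 2. The other CD8 chain gene, Cd8b1, differed by −0.07, with −0.51 in number 1 and 0.37 in number 2. Cd3d differed by −0.055, with −0.23 in number 1 and 0.12 in number 2. Cd3g differed by −0.45, with −0.66 in number 1 and −0.24 in number 2. For Cd3e it was −0.265, with −0.19 in number 1 and −0.34 in number 2. Of the 5 markers 2 were lower after TCDD without overlap, Cd8a and Cd3g, beside 12.0% of all named genes. The part of these markers in the Cd28 values was not tested. The means of Ctla4 were 7.675 ± 2.27 (SD, n = 2) in the TCDD group and 7.58 ± 1.584 (n = 2) in the DMSO group. Its difference of 0.095 had limits of −3.24 and 3.43, too wide to bound a response. The fit behind these limits has no term for the number, so the step between the numbers counts as spread, for Ctla4 as for Cd28. Limits with the replicate block are not given here. Within the numbers the Ctla4 difference was 0.58 in number 1 and −0.39 in number 2. It ran from −1.51 without TCDD replicate 1 to 1.70 without TCDD replicate 2. Whether the treatment difference varied between the numbers could not be tested with 1 array in each cell.

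For the remaining genes the limits were narrower. Pdcd1 measured 4.22 and 4.27 after TCDD and 3.99 and 4.06 after DMSO, a difference of 0.22 (limits −0.05 and 0.49) that was 0.23 and 0.21 within the numbers, at a level below the median. Lag3 differed by −0.04 (limits −0.30 and 0.22), with all 4 arrays within 0.07, also at a level below the median. Icos differed by 0.135 (limits −0.21 and 0.48), and its other probe set by −0.035. Cd160 differed by 0.245 (limits −0.21 and 0.70), which was −0.01 in number 1 and 0.50 in number 2. Cd27 had the same mean of 7.055 in both treatments (limits −0.36 and 0.36), Tnfrsf4 differed by 0.045 (limits −0.25 and 0.34) and Tnfrsf9 by −0.04 (limits −0.38 and 0.30). The last 2 turned sign when single arrays were left out, Tnfrsf4 to −0.02 and Tnfrsf9 to 0.085 at most.

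**Figure D2:**
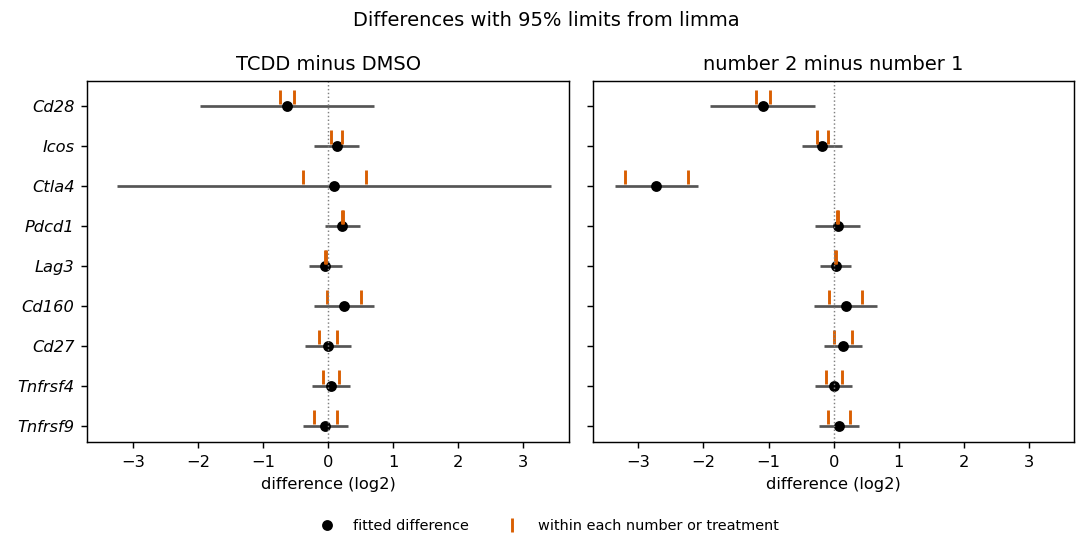
Differences in log2 expression (horizontal axis) for the 9 genes, TCDD minus DMSO on the left and number 2 minus number 1 on the right. Dots are the fitted differences, bars their 95% limits from limma, and ticks the difference within each number (left) or treatment (right). The bar for Ctla4 spans −3.24 to 3.43 on the left, where the step between the numbers counts as spread, and −3.36 to −2.09 on the right.

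The genes with the profile most like that of Ctla4 and Cd28, the only members to span more than 1 unit, were sought among genes with a mean above the median level. Likeness was the root mean square distance between profiles over the 4 arrays, each centred on its own mean, with 7389 genes compared for each. Nearest to Ctla4 were Klf10, a TGF-beta inducible transcription factor gene, at a distance of 0.145, the tubulin gene Tubb2a at 0.281 and Vps37b, which encodes an ESCRT-I subunit, at 0.286. Klf10 measured 8.38 and 7.68 in TCDD and DMSO replicates 1 against 5.45 and 5.59 in replicates 2. Nearest to Cd28 were the cytokine gene Ifng at 0.094, the phosphatase gene Dusp1, which restrains MAP kinases, at 0.136 and the immediate early gene Ier5 at 0.166. Ifng measured 8.12 and 8.58 in TCDD and DMSO replicates 1 against 7.01 and 7.49 in replicates 2, with the DMSO array the higher in both numbers, as for Cd28. With 4 arrays such likeness is a description of these arrays.

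**Figure D3:**
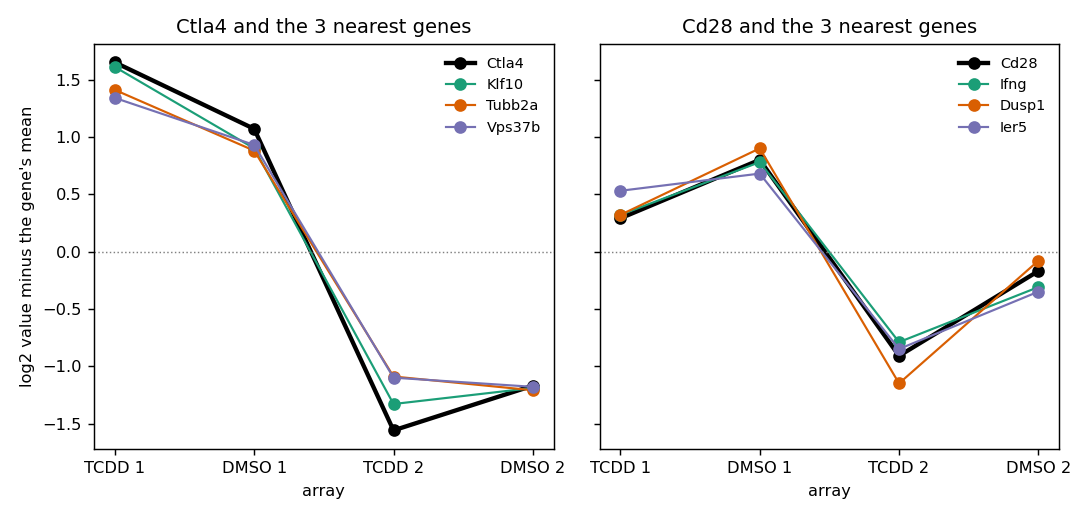
Log2 value minus the gene's own mean (vertical axis) in each array (horizontal axis) for Ctla4 and Cd28, in black, and the 3 genes nearest to each; the lines only join the values of a gene. Ctla4 goes from 1.65 and 1.07 in the arrays numbered 1 to −1.56 and −1.17 in those numbered 2, and Cd28 is highest in DMSO replicate 1 at 0.80 and lowest in TCDD replicate 2 at −0.91.

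The other genes of costimulation were followed in lists of ligands, other coreceptors and signalling partners, and none passed limma in either comparison. All 9 ligand genes were measured, 3 of them above the median level, and 0 passed limma in either comparison. Their differences ran from −0.035 to 0.27 with treatment (median 0.08) and from −0.28 to 0.09 between the numbers (median −0.005). Cd86, a ligand of CD28 and CTLA-4, measured 7.45 and 7.08 in TCDD and DMSO replicates 1 and 7.03 and 7.05 in replicates 2, with differences of 0.175 with treatment and −0.225 between the numbers. Cd274, which encodes the PD-1 ligand PD-L1, differed by −0.28 between the numbers with overlap, and Tnfsf4, the OX40 ligand gene, by 0.11 with treatment.

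Of 15 other coreceptor genes 12 were measured, and 0 passed in either comparison. Their medians were 0.028 with treatment and 0.087 between the numbers. An unadjusted p under 0.05 between the numbers was found for 1 of the 12, beside 7.46% of all probe sets. It was that of Havcr2, which encodes the inhibitory receptor TIM-3. Havcr2 measured 5.30 and 4.99 in TCDD and DMSO replicates 1 against 4.49 and 4.38 in replicates 2, all below the median level, a difference of −0.71 (limma adjusted p = 0.3966); it was named after its values were seen. Cd2, an adhesion and costimulatory receptor gene, differed by 0.385 between the numbers, and Tnfrsf25, the death receptor 3 gene, by 0.255 with treatment and 0.295 between the numbers. Those of Cd2 and Tnfrsf25 rest on TCDD replicate 2, the highest array at 10.90 and 7.13, against 10.11 to 10.48 and 6.50 to 6.58. The checkpoint gene Vsir differed by −0.135 with treatment.

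Of 21 signalling partner genes 15 were measured, all above the median level, and 0 passed in either comparison. Between the numbers 5 were lower without overlap and 1 higher, where 14.0% of all named genes were lower and 22.4% higher. The median was −0.18, beside 0.035 over all genes, and 4 of the 15 had an unadjusted p under 0.05, beside 7.46% of all probe sets. Vav1, the exchange factor gene downstream of CD28, measured 7.95 and 7.55 in TCDD and DMSO replicates 1 against 7.17 and 6.76 in replicates 2, a difference of −0.785 (limma adjusted p = 0.553). The kinase gene Akt1 differed by −0.39 (adjusted p = 0.6507). With Vav1 and Akt1, the 4 were Rela, lower in number 2 at −0.38, and Map3k14, higher at 0.33. Rela and Map3k14 were named after their values were seen. With treatment the median was 0.075, beside 0.01 over all genes, with 2 genes lower and 1 higher without overlap, beside 12.0% and 12.9% of all named genes. Traf1, an adaptor gene of the TNF receptor family, measured 7.08 and 7.42 after TCDD and 7.69 and 7.73 after DMSO, a difference of −0.46 (unadjusted p = 0.02926, limma adjusted p = 0.9973). The adaptor gene Grb2 differed by −0.41, at 6.65 and 7.11 against 7.43 and 7.15.

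**Figure D4:**
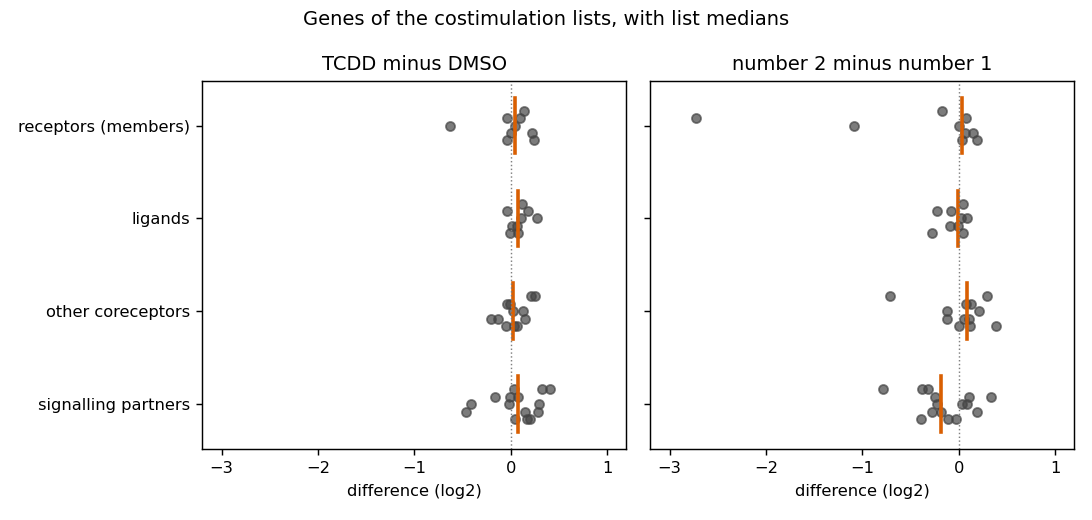
Differences in log2 expression (horizontal axis) of the genes of 4 lists, TCDD minus DMSO on the left and number 2 minus number 1 on the right, 1 dot per gene for its brightest probe set, with the list median as a bar. Ctla4 at −2.725 and Cd28 at −1.09 lie apart from the other receptor genes on the right, where the signalling partners have a median of −0.18.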

How the data were processed

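The deposited table holds 1 log2 value per probe set and array. RMA was run by the authors per the submitters' processing notes, and no source used here gives its version. That the deposited values are log2 was inferred from their range of 3.09 to 14.62. Of 22690 probe sets 64 controls were left out. Names came from the platform annotation, with Entrez identifiers checked in RefSeq (GRCm38.p6): 20380 probe sets had 1 symbol, 691 several and 1555 were unnamed here. Differences were fitted by limma 3.58.1 (R 4.3.3; lmFit, then eBayes, with neither covariate nor filter) over 22626 probe sets, TCDD against DMSO and number 2 against number 1, with Benjamini-Hochberg adjustment and a threshold of 0.05. Simulated data with planted differences were used only to check that the fit recovers their mean size. Alternatives were a replicate block, median centring, a filter at the median level, a variance trend with robust fitting, gene means and each array left out. A further one removed probe sets with the suffix _x_at, _s_at or _a_at. It took out the main probe set of Cd160, so another stood for that gene, at 0.165 with treatment and 0.255 between the numbers.

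The 9 genes and the lists were chosen with earlier results of these data known. Named were these genes, from each pathway list the 2 with the largest difference per comparison above the median level, and the 3 nearest profiles. Others are marked where named, or are the largest differences between the numbers.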

Additional observations from a re-analysis of the deposited data

How the results depend on the processing

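Of 104 member differences refitted with all 4 arrays, 101 kept their direction and side of the threshold. Centring turned Lag3 to −0.01 and Tnfrsf4 to −0.035 between the numbers. The variance trend with robust fitting brought Ctla4 (−2.725, adjusted p = 0.0421) past the threshold, so 1 member was called in place of 0, and 11 probe sets in place of 1; gene means gave 7. The filter at the median level removed Pdcd1 and Lag3, which have no value there. With the replicate block, which for the numbers is treatment as a term, 0 probe sets were called between the numbers (1361 at an unadjusted p under 0.05) and 0 with treatment (612). The block left every difference as it was, with adjusted p of 0.4779 for Ctla4 and Cd28 between the numbers and 0.9942 for Cd28 with treatment (unadjusted p = 0.009906). The numbers are shared only as labels. The differences between number 2 and number 1 correlated over probe sets between the treatments with r = 0.234, from 2 pairs.

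With single arrays left out, the lone array of a group is assumed to vary like the other group. Between the numbers 0 probe sets were then called, and Ctla4 ran from −3.015 to −2.435 and Cd28 from −1.46 to −0.72. Icos ran from −0.285 to −0.065, Lag3 from 0.005 to 0.055, Cd27 from 0.08 to 0.22, Pdcd1 from −0.055 to 0.175, Cd160 from −0.065 to 0.435, Tnfrsf4 from −0.08 to 0.09 and Tnfrsf9 from −0.025 to 0.185. With treatment Cd28 ran from −1.23 to −0.03, Ctla4 from −1.51 to 1.70, Icos from 0.005 to 0.265, Pdcd1 from 0.185 to 0.255, Lag3 from −0.06 to −0.02, Cd160 from 0.025 to 0.465, Cd27 from −0.145 to 0.145, Tnfrsf4 from −0.02 to 0.11 and Tnfrsf9 from −0.165 to 0.085. Members below the median level are limited by signal near background.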
